A study of Mus musculus with 7 samples.

Results

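The genes described here act in G2 and mitosis: mitotic entry, spindle assembly, kinetochores, condensin, anaphase and cytokinesis. They are 46 listed genes, found on the arrays by the gene name that the array files give to each probe. Together they have 84 of 41174 gene probes, and 45 of them were measured among 17537 genes. Anln, a scaffold of the cleavage furrow, was the exception, since its 2 probes stood well above background on 1 and 0 of 7 arrays. The list was chosen by gene function, not by the values on these arrays, although earlier results of the same data were known when it was drawn up.

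Cells enter mitosis when cyclin B and its kinase CDK1 are activated. Spindle and kinetochore proteins then align the condensed chromosomes, and the anaphase-promoting complex ends mitosis by marking securin and the cyclins for destruction. Most genes of this programme are transcribed late in the cell cycle, so their transcripts are scarce in cells that have stopped dividing. In the intestine, division takes place in the crypts, where stem cells and their early progeny cycle, while mature secretory cells such as Paneth cells do not.

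The arrays compared sorted GFP-high cells of the mouse intestine. Cells of 3 groups came from Dll1-EGFP-ires-CreERT2 mice, in which the promoter of Dll1, a Notch ligand of early secretory cells, drives GFP, and were split into low, medium and high CD24, a surface protein, with 2 arrays per level. One further array held GFP-high cells of Lgr5-EGFP-ires-CreERT2 mice, in which the promoter of the stem cell receptor Lgr5 drives GFP. Every mouse line carried the ires-CreERT2 knock-in reporter, and the labels give no treatment, age or strain. A level is the log2 of sample over whole small intestine RNA, the reference on every array, and a difference between groups is the difference of such levels. The reference always carried Cy5, so a dye effect enters every level but cancels between groups. Arrays are named by CD24 level and replicate, as in low 1.

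Replicates are described as biological but cannot be traced to animals here, so p-values reflect only the spread between these arrays, to which the single Lgr5 array adds nothing. The number of arrays limits the precision. The share of gene spots well above background was 42.5 to 44.4% in CD24 high and 52.8 to 60.5% elsewhere. Slide 1 held the Lgr5 array with high 1 and medium 1, and slide 2 held the other 4 arrays. The transcript of CD24, Cd24a, followed the gates, at -0.68 and -0.59 in CD24 low, 0.88 and 0.75 in CD24 medium, then 3.34 and 3.47 in CD24 high, with -0.11 in Lgr5. Lgr5 itself was at 2.51 on the Lgr5 array, -1.23 to -0.54 in CD24 low and medium and 1.36 and 1.31 in CD24 high. Dll1, whose promoter drives the reporter, was at 0.61 and -0.04 in CD24 high, below 0.88 in Lgr5 and below 2.52 to 2.81 on the CD24 low and medium arrays. Of 8 Paneth cell markers, all 8 were well above background on every array, and the log2 of their summed ratios was -0.23 in Lgr5, 1.54 to 1.62 in CD24 low, 3.12 to 3.19 in CD24 medium and 8.41 to 8.57 in CD24 high. The same sum over 8 enteroendocrine markers was 3.08 in Lgr5, 3.99 to 5.74 in CD24 low, 6.52 to 7.52 in CD24 medium and 2.97 to 2.99 in CD24 high, where 3 or 4 of the 8 stood above background. Over 9 measured immune markers of 12 it was 2.33 in Lgr5, 2.49 to 2.55 in CD24 low, 2.32 to 2.39 in CD24 medium and 3.30 to 4.32 in CD24 high. The part of these cell types in the results on the mitotic genes was not tested.

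Transcripts of the mitotic genes were graded across the sorted fractions, highest in Lgr5 and lowest in CD24 high. The median level over the 45 genes was 0.74 on the Lgr5 array, 0.19 and 0.21 on the CD24 low arrays, -0.43 and -0.47 on the CD24 medium arrays and -1.19 and -0.94 on the CD24 high arrays. Groups did not overlap in this median, and Lgr5 and CD24 low lay above whole small intestine while CD24 medium and CD24 high lay below it. In bulk RNA, a smaller share of dividing cells and less transcript per dividing cell cannot be told apart. On the Lgr5 and CD24 low arrays all 45 genes stood well above background, on the CD24 medium arrays 43, and on the CD24 high arrays 35 and 26.

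**Figure D1:**
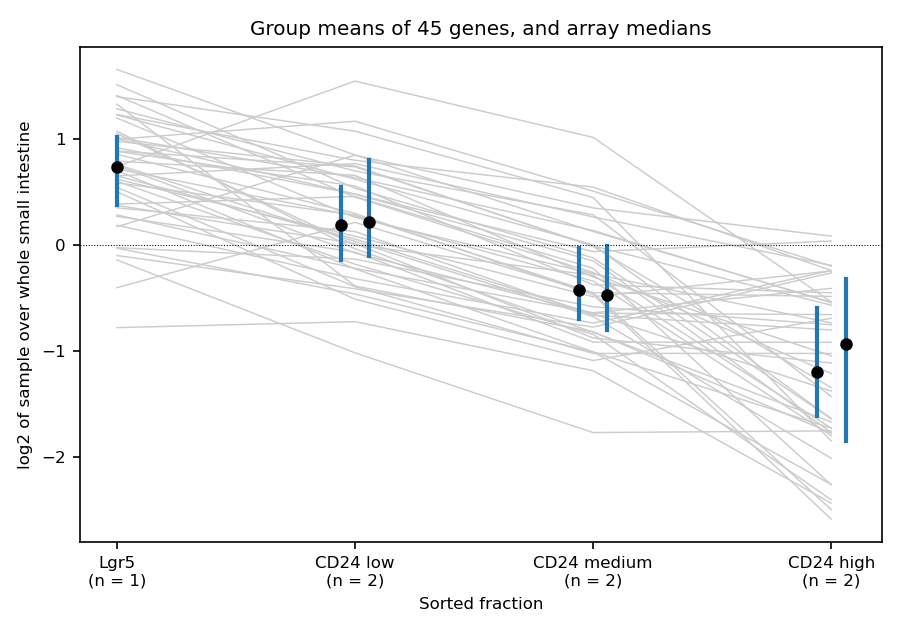
Group mean level (log2 of sample over whole small intestine) of each of 45 G2 and mitosis genes in 4 sorted fractions (grey lines), with the median over the genes on each array (black points) and the middle 50% of the genes (blue bars). Array medians fall from 0.74 in Lgr5 to -1.19 and -0.94 in CD24 high.

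The order Lgr5, CD24 low, CD24 medium, CD24 high held for the group means of 31 of the 45 genes, against 8.04% of the 17319 genes measured on all arrays. In 23 of the 45 no neighbouring groups of that order overlapped, against 1.83% of all genes. Within the Dll1 cells alone the order low, medium, high held in 38 genes (24.6% of all genes), and in 31 without overlap (5.54%). CD24 low lay above CD24 medium in all 45 genes, and Lgr5 was the highest group in 38. The departures were of 2 kinds. CD24 low exceeded Lgr5 in 7 genes, namely Cdc25b, Bub1, Cenpe, Espl1, Cdc25c, Mki67 and Smc4, and the mean of CD24 high exceeded that of CD24 medium in Foxm1, Plk4, Ttk, Kif11, Kif2c, Mad2l1 and Prc1. Of these 7, Foxm1, Kif2c and Prc1 stood well above background on all arrays of both groups, and none passed the test. Kif11 and Ttk did so on neither CD24 high array, so their level there has only an upper limit. Their place in the order was not measured. Mad2l1 and Plk4 stood well above background on 1 CD24 high array. The same limit holds for genes that kept the order. Aurkb, Hmmr, Ncaph, Racgap1 and Smc2, counted among the 31, were dim on both CD24 high arrays. So were Cdc25c and Espl1, counted among the 38. Aurkb and Racgap1 kept the order by 0.0004 and 0.002 in CD24 medium over CD24 high, with overlap.

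**Figure D2:**
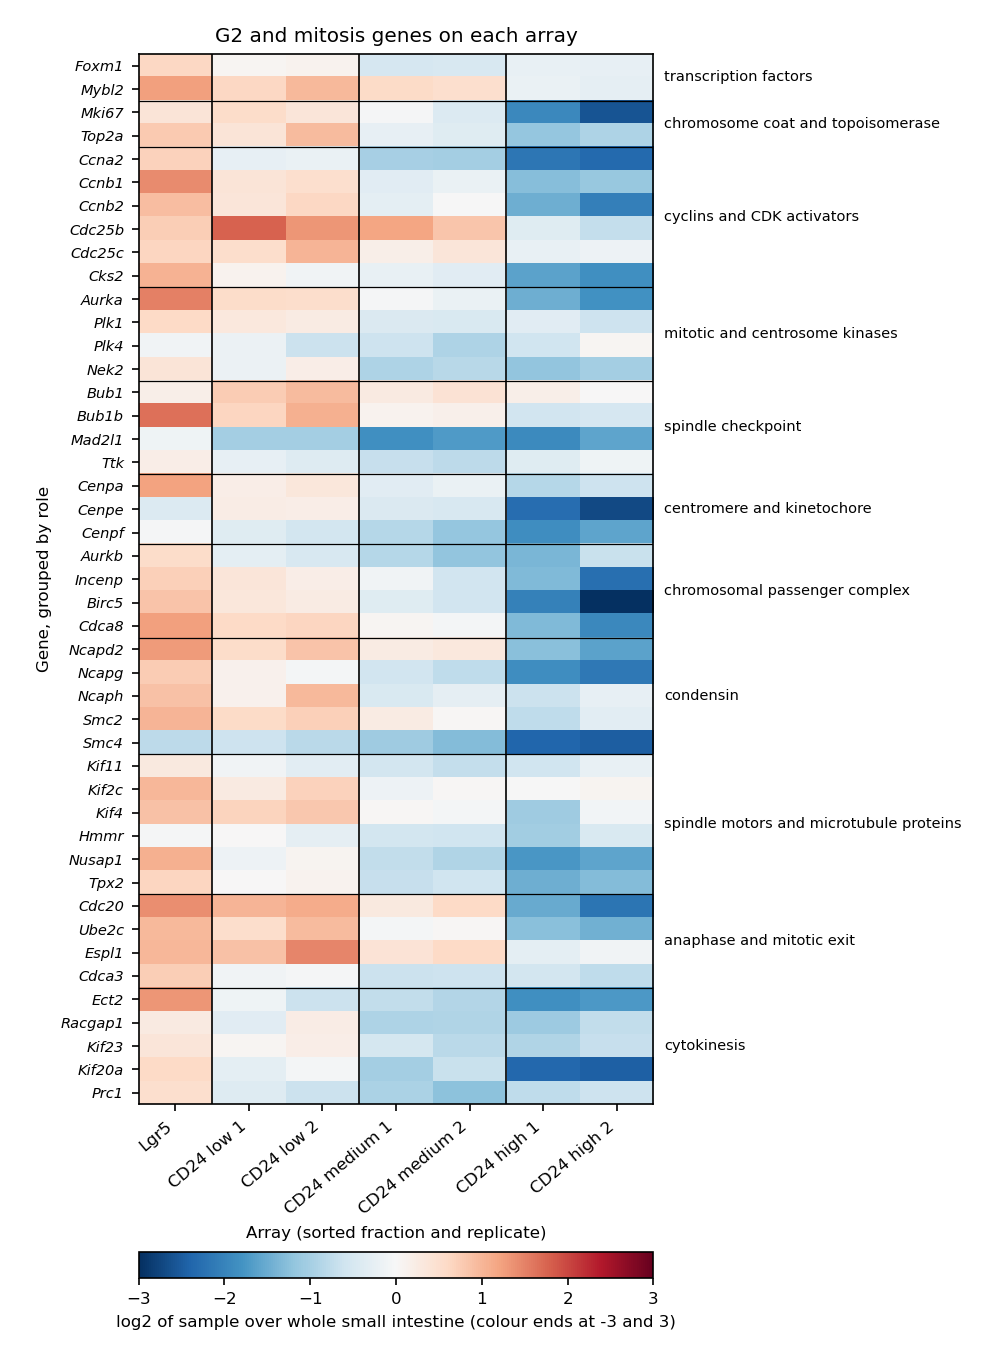
Level (colour, log2 of sample over whole small intestine) of 45 G2 and mitosis genes, grouped by role, on each of 7 arrays. Colours shift from red in Lgr5 to blue in CD24 high in most rows, while Foxm1, Kif2c and Prc1, well above background in both groups, have lower means in CD24 medium than in CD24 high.

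Promoters of the group share short motifs that the choice of genes did not use. The cell cycle genes homology region, CHR, is the site through which the MuvB complex, with B-MYB or with DREAM partners, binds promoters of late cell cycle genes, and CCAAT is the site of the factor NF-Y. RefSeq promoter windows of 300 bases (250 before and 50 after the gene's start, GRCm38.p6) were matched for 38 of the 46 genes, in 40 windows. The CHR letters TTTGAA or TTCGAA stood on either strand in 30 of 40 windows, 75%, against 19.2% of 32851 windows of all genes. Within the 200 bases before the start alone, the shares were 37.5% and 13.4%. CCAAT on either strand stood in 80.0% against 37.4%, and both kinds in 70.0% against 7.53%. A match is a run of letters, not evidence of binding. The 5 stretches below end at the base before the gene's start and are shown for Cdc20, which had the largest difference from CD24 high in CD24 low and in CD24 medium, its partner Ube2c, cyclin B1, the proliferation marker Mki67 and Kif11, a spindle motor not well above background in CD24 high. Capitals mark TTTGAA or TTCGAA and CCAAT, or the same letters read from the other strand (TTCAAA and ATTGG).
Cdc20 (chr4:118437344-118437463, minus strand): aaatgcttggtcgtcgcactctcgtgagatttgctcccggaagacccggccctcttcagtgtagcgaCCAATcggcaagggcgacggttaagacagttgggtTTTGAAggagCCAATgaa
Ube2c (chr2:164769809-164769928, plus strand): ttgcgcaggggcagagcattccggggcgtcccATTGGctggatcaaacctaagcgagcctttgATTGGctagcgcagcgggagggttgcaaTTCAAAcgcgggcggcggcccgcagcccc
Ccnb1 (chr13:100786487-100786606, minus strand): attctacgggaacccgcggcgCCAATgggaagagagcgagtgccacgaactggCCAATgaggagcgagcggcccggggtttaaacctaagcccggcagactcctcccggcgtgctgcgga
Mki67 (chr7:135716380-135716579, minus strand): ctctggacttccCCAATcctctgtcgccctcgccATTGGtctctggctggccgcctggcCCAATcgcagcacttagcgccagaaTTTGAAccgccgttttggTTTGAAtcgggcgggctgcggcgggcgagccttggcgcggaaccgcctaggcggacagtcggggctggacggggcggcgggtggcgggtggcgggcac
Kif11 (chr19:37376262-37376381, plus strand): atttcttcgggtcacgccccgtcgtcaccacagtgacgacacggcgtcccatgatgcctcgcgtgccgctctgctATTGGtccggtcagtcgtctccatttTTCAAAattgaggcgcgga

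Kif11 carries the same pair of motifs as Cdc20 and Ube2c in its printed stretch, while the Ccnb1 stretch holds 2 CCAAT and none of the CHR letters searched. Among measured genes with a window, the median difference of CD24 low from CD24 high was 1.30 over 27 genes with the CHR letters and 1.38 over 10 without them, ranges of -0.08 to 2.92 and -0.15 to 2.88. Genes with and without these letters thus covered nearly the same range of differences.

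Between CD24 medium and CD24 high, 23 of the 45 genes were higher in CD24 medium and 0 were lower (limma with Benjamini-Hochberg adjustment over all genes, threshold 0.05), against 7.52% and 13.3% of all genes. Their median difference was 0.72, beside 0.01 over all genes, and the range ran from -0.51 for Plk4 to 2.29 for Cdc20. The groups did not overlap in 31 genes with CD24 medium above (33% of all genes) and in 4 with CD24 medium below (34%), of which Ttk was dim in both groups and Plk4 in CD24 medium. Leaving out medium 2 gave 15 called genes, and 15 of the 23 calls were kept whichever array was left out. Agilent's processed signals, which have no offset, gave a median of 1.94 and 35 called genes, and the deposited ratios a median of 2.10 and 35. The median was 0.91 on slide 1 alone and 0.64 on slide 2 alone, where 11 genes were called.

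Between CD24 low and CD24 high, 35 of the 45 genes were higher in CD24 low and 0 were lower, against 6.84% and 11.2% of all genes. In 41 genes the groups did not overlap, CD24 low being above (31.6% of all genes). The median difference was 1.37, beside 0.02 over all genes, with a range from -0.15 for Plk4 to 2.92 for Cdc20. The call was kept in 24 of the 35 genes whichever array was left out. From Agilent's processed signals the median was 2.66, from the deposited ratios it was 2.82, and on slide 2, the one slide with both groups, it was 1.27 with 21 called genes.

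**Figure D3:**
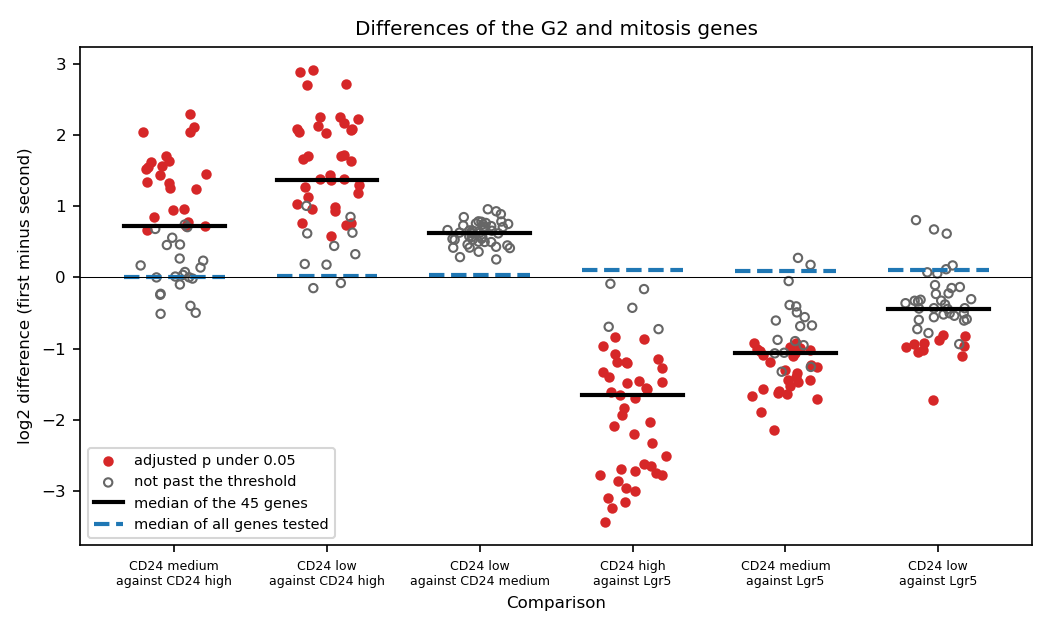
Differences (log2, first group minus second) of 45 G2 and mitosis genes in 6 comparisons, with genes past an adjusted p of 0.05 in red, the median of the 45 (black) and of all genes tested (blue, dashed). All 45 points of CD24 low against CD24 medium lie between 0.25 and 0.96, and none of them is red.

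Between CD24 low and CD24 medium, every one of the 45 genes had a higher mean in CD24 low, yet 0 passed the threshold in either direction, as did 0% of all genes upward and 0.114% downward. The differences ran from 0.25 for Mybl2 to 0.96 for Top2a, with a median of 0.63 beside 0.03 over all genes, of which 55.8% had a positive difference. The middle 50% of the genes fell between 0.50 and 0.73, a narrower band than the 0.77 to 2.07 of CD24 low against CD24 high. In 44 genes the groups did not overlap (22.3% of all genes), Plk4 being the exception. An unadjusted limma p under 0.05 was reached by 34 of 45 genes, against 5.24% of all genes, and the smallest adjusted p was 0.184, for Ccna2. Each alternative run also gave 0 calls, and on slide 2 alone the median was 0.67 with 45 of 45 genes higher.

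Against Lgr5, CD24 high was lower in 40 of the 45 genes (14.6% of all genes lower), CD24 medium in 28 (8.5%) and CD24 low in 11 (9.78%), and 0 genes were higher in any of the 3 (21.2%, 10.3% and 11.9% of all genes higher). Median differences were -1.66, -1.07 and -0.44, beside 0.10, 0.09 and 0.10 over all genes. All 3 comparisons rest on the same Lgr5 array, whose spread is assumed to be that of the other groups. Within slide 1 the medians were -1.89 for CD24 high and -1.13 for CD24 medium, whereas CD24 low and Lgr5 shared no slide. With the slide as a term in the model, 1 gene stayed past the threshold in CD24 low against Lgr5, 2 genes did so in a fit of those groups alone, and 2 with Agilent's processed signals. The count was 7 without low 1 and 6 without low 2. Of CD24 medium against Lgr5 the count was 17 without medium 1, 14 without medium 2, 13 from processed signals and 14 from the deposited ratios.

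**Figure D4:**
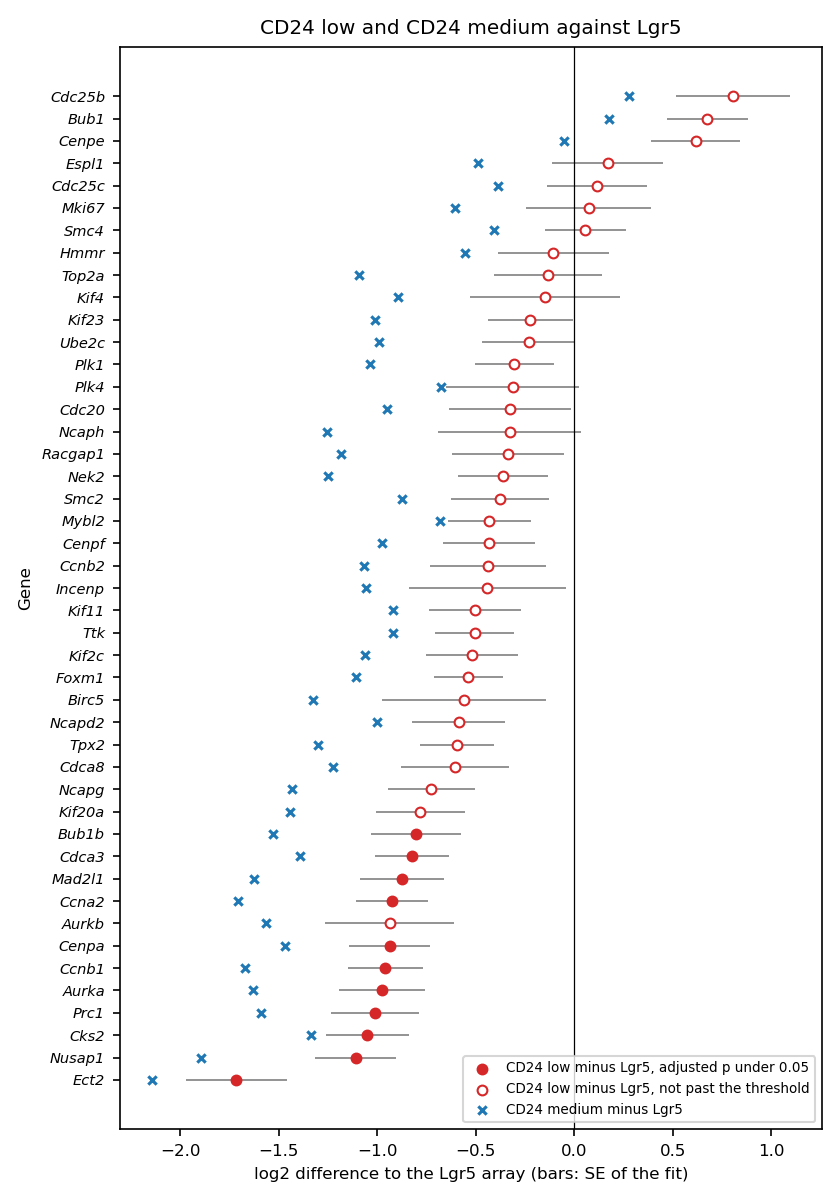
Difference (log2) of CD24 low from the Lgr5 array for each of 45 G2 and mitosis genes (circles, bars show the SE of the fit, filled where adjusted p is under 0.05), with CD24 medium minus Lgr5 (crosses). CD24 low runs from 0.81 above Lgr5 for Cdc25b to 1.72 below it for Ect2, and each cross lies to the left of its circle.

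Of the transcription factors, Mybl2 was graded, and the lowest Foxm1 mean was that of CD24 medium. Mybl2 encodes B-MYB, which switches on late cell cycle genes. Its level was 1.23 in Lgr5, 0.63 and 0.97 in CD24 low, 0.59 and 0.51 in CD24 medium, with -0.21 and -0.27 in CD24 high. All groups were separate in that order, with a step of 0.79 between CD24 medium and CD24 high (SE 0.17, limma adjusted p = 0.0238) and of 1.04 between CD24 low and CD24 high (adjusted p = 0.00965). Foxm1, the forkhead factor of G2 and mitosis genes (probe at chromosome 6, 128324783 to 128324842, mm9), was at 0.62 in Lgr5, 0.06 and 0.11 in CD24 low, -0.50 and -0.47 in CD24 medium, against -0.23 and -0.25 in CD24 high. Its CD24 high arrays lay above both CD24 medium arrays, a difference of 0.24 that did not pass the threshold (adjusted p = 0.274) and was 0.04 the other way in the sample channel alone. Against Lgr5, Foxm1 was lower in CD24 medium by 1.11 (SE 0.18, adjusted p = 0.00936) and in CD24 high by 0.87 (adjusted p = 0.0107), and CD24 low did not pass. The Mybl2 call between CD24 medium and CD24 high was lost without either array of these groups (adjusted p up to 0.123), and that of Foxm1 in CD24 medium against Lgr5 without medium 2 (0.0502).

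Mki67 encodes the protein that coats mitotic chromosomes and serves as the standard marker of proliferation (probe at chromosome 7, 142881591 to 142881650, mm9). It stood at 0.39 in Lgr5, 0.56 and 0.36 in CD24 low, -0.03 and -0.41 in CD24 medium, then -1.94 and -2.58 in CD24 high. CD24 low and Lgr5 thus overlapped, and the CD24 high arrays lay far below all others: 2.72 below CD24 low (SE 0.26, limma adjusted p = 0.00114), 2.04 below CD24 medium and 2.65 below Lgr5. A second Mki67 probe gave a CD24 low difference from Lgr5 of 1.00 where the brighter one gave 0.07, so the order of these groups depends on the probe. Top2a, the topoisomerase that untangles sister DNA, stood at 0.79 in Lgr5, 0.38 and 0.94 in CD24 low, -0.24 and -0.36 in CD24 medium, with -1.15 and -0.94 in CD24 high. Top2a had the widest gap between CD24 low and CD24 medium, 0.96, with adjusted p = 0.246. It fell by 1.84 from Lgr5 to CD24 high (SE 0.27, adjusted p = 0.00336) and was 1.70 higher in CD24 low than in CD24 high. Its call in CD24 medium against Lgr5, -1.09, was lost without either CD24 medium or either CD24 high array (adjusted p up to 0.138).

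All 6 cyclins and CDK activators were higher in CD24 low than in CD24 high, 5 of them also in CD24 medium, and all 6 were lower in CD24 high than in Lgr5. Ccna2, the cyclin of S phase and G2, stood at 0.70 in Lgr5, -0.25 and -0.20 in CD24 low, -1.0 and -1.01 in CD24 medium, against -2.18 and -2.34 in CD24 high. Its replicates were close and no groups overlapped. Ccna2 fell by 2.96 from Lgr5 to CD24 high, 7.78-fold (SE 0.18, limma adjusted p = 0.000175), the smallest adjusted p of the 45 genes in that comparison. Ccnb1, the cyclin that drives mitotic entry with CDK1, stood at 1.41 in Lgr5, 0.39 and 0.51 in CD24 low, -0.33 and -0.19 in CD24 medium, then -1.28 and -1.15 in CD24 high. The steps were of like size: CD24 low lay 0.96 below Lgr5 (SE 0.19, adjusted p = 0.0179), while CD24 low exceeded CD24 medium by 0.71 and CD24 medium exceeded CD24 high by 0.95 (adjusted p = 0.00937, 0.0734 without medium 2). The 2 further Ccnb1 probes, each above background on 5 arrays, gave 0.32 and 0.07 for CD24 medium over CD24 high. For CD24 low against Lgr5 they gave -1.72 and -1.38. Steps of like size were thus seen on the brightest probe alone.

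Ccnb2, its close relative, stood at 0.92 in Lgr5, 0.35 and 0.61 in CD24 low, -0.29 and -0.00 in CD24 medium, with -1.48 and -2.06 in CD24 high. Its differences from CD24 high, 2.25 for CD24 low and 1.62 for CD24 medium, were the largest of this role. Cks2, a small subunit that binds CDKs, was at 1.05 in Lgr5, 0.10 and -0.10 in CD24 low, -0.22 and -0.35 in CD24 medium, against -1.61 and -1.84 in CD24 high. Most of its change lay between Lgr5 and CD24 low, which fell by 1.05 (limma adjusted p = 0.0177, 0.0551 without low 2), and between CD24 medium and CD24 high, with 0.29 between CD24 low and CD24 medium. Cdc25b, a phosphatase that activates CDK1, went another way: 0.74 in Lgr5, 1.77 and 1.32 in CD24 low, 1.19 and 0.84 in CD24 medium, then -0.35 and -0.72 in CD24 high. All 4 CD24 low and medium arrays exceeded Lgr5, by 0.81 for CD24 low (SE 0.29, adjusted p = 0.0935), which did not pass. CD24 low exceeded CD24 high in Cdc25b by 2.08, and CD24 medium did so by 1.55. Cdc25c, a second such phosphatase, was not well above background in CD24 high, where CD24 low exceeded it at least 1.89-fold (adjusted p = 0.0241, 0.0912 at most with an array left out). Such bounds divide the mean of the brighter group by the dim probe's own signal, both in the sample channel. In every such case that signal was above the lowest signal on the array that counts as well above background. The bounds are thus point estimates that make no allowance for the spread between arrays. They are lower limits only in so far as a dim signal may be background. The fold of the group means of the level is given instead where it is smaller.

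Of the mitotic kinases, Aurka, which matures centrosomes, was the most graded. It stood at 1.51 in Lgr5, 0.54 and 0.53 in CD24 low, -0.04 and -0.20 in CD24 medium, with -1.46 and -1.81 in CD24 high, with no overlap. Aurka fell by 3.15 from Lgr5 to CD24 high, 8.88-fold (SE 0.22, limma adjusted p = 0.000262), and by 0.98 from Lgr5 to CD24 low (adjusted p = 0.025, 0.0671 without low 2). Nek2, a kinase of centrosome separation, was 1.13 higher in CD24 low than in CD24 high (adjusted p = 0.0511 without high 1) and 1.25 lower in CD24 medium than in Lgr5 (0.0599 at most, without either CD24 medium array). Its arrays of CD24 medium, -0.93 and -0.82, lay close to those of CD24 high, -1.19 and -1.03. Plk1 showed the same flat step, with a CD24 medium difference from CD24 high of 0.04. Plk4, which licenses centriole duplication, changed in none of the comparisons and was not well above background on the CD24 medium arrays.

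In the spindle checkpoint, which holds anaphase until every kinetochore is attached, members diverged. Bub1b, a subunit of the checkpoint complex that inhibits Cdc20, stood at 1.66 in Lgr5, 0.64 and 1.06 in CD24 low, 0.11 and 0.14 in CD24 medium, against -0.58 and -0.50 in CD24 high. It was 2.19 lower in CD24 high than in Lgr5 (SE 0.23, limma adjusted p = 0.000956) and 1.39 higher in CD24 low than in CD24 high. Its other calls were close to the threshold: 0.67 for CD24 medium over CD24 high (adjusted p = 0.0489, up to 0.194 with an array of these groups left out, and 0.0526 with an offset of 16), and -0.81 for CD24 low against Lgr5 (adjusted p = 0.0496, up to 0.101 with an array left out). Mad2l1 stood at -0.14 in Lgr5, -1.02 and -1.01 in CD24 low, -1.84 and -1.69 in CD24 medium, then -1.91 and -1.59 in CD24 high. CD24 medium and CD24 high overlapped in Mad2l1, and the direction depended on the processing: CD24 medium was 2.16 above CD24 high with Agilent's processed signals (adjusted p = 0.0319) and 0.90 above it in the sample channel alone (adjusted p = 0.012). The call of Mad2l1 in CD24 low against Lgr5 (-0.88, adjusted p = 0.0318) was lost without either CD24 low or CD24 medium array (up to 0.0779).

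Bub1, the kinase partner of this checkpoint, differed from CD24 high by 0.76 in CD24 low (limma adjusted p = 0.0254, up to 0.112 with an array left out). CD24 low exceeded the Lgr5 array in Bub1 by 0.67 (adjusted p = 0.0598), with 0.75 and 0.95 against 0.17. A second Bub1 probe put CD24 low below Lgr5 by -0.90 and CD24 high below it by -1.58, where the brighter probe gave -0.09 for CD24 high, so the place of Lgr5 in the order of Bub1 is uncertain. Ttk, the kinase that starts checkpoint signalling, was not well above background in CD24 medium or CD24 high. It passed in CD24 medium against Lgr5 alone, at least 1.54-fold lower (adjusted p = 0.0243), and that call was lost without either CD24 medium array (up to 0.116).

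The centromere and kinetochore genes were all 3 higher in CD24 low than in CD24 high and lower in CD24 high than in Lgr5. Cenpe, a kinesin that moves chromosomes to the spindle equator, stood at -0.40 in Lgr5, 0.23 and 0.19 in CD24 low, -0.43 and -0.48 in CD24 medium, with -2.29 and -2.70 in CD24 high. The CD24 high arrays were set apart: CD24 low exceeded them by 2.71 (SE 0.18, limma adjusted p = 0.000287), the smallest adjusted p of the 45 genes in that comparison, and CD24 medium by 2.04 (adjusted p = 0.00109). CD24 medium differed from Lgr5 in Cenpe by -0.05, and CD24 low was 0.62 above Lgr5 without passing (adjusted p = 0.0969). A second Cenpe probe, above background on 5 arrays, showed 0.38 for CD24 low over CD24 high. Cenpa, the histone H3 variant of centromeres, was at 1.20 in Lgr5, 0.19 and 0.34 in CD24 low, -0.35 and -0.19 in CD24 medium, against -0.85 and -0.61 in CD24 high. Its largest step was from Lgr5 to CD24 low, which fell by 0.94 (adjusted p = 0.0235, 0.0538 without low 1). Cenpf, a large kinetochore protein, exceeded CD24 high by 0.72 in CD24 medium, a call that was lost without either array of these groups (up to 0.212).

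The chromosomal passenger complex corrects faulty kinetochore attachments and steers cytokinesis, through the kinase Aurkb and the subunits Incenp, Birc5 and Cdca8. Birc5, or survivin (probe at chromosome 11, 117716959 to 117717018, mm9), had the largest difference of the 45 genes from Lgr5 in CD24 high. It stood at 0.86 in Lgr5, 0.34 and 0.25 in CD24 low, -0.36 and -0.57 in CD24 medium, then -2.04 and -3.13 in CD24 high. The 2 CD24 high arrays were 1.09 apart, the widest gap between replicates for any of the 45 genes, yet both lay below every other array. Birc5 fell by 3.44 from Lgr5, 10.9-fold (SE 0.42, limma adjusted p = 0.00161), and CD24 low and CD24 medium exceeded CD24 high by 2.88 and 2.12. Cdca8, or borealin, stood at 1.23 in Lgr5, 0.60 and 0.64 in CD24 low, 0.05 and -0.05 in CD24 medium, with -1.33 and -1.94 in CD24 high. CD24 low exceeded CD24 high in Cdca8 by 2.26 (adjusted p = 0.00137), and CD24 medium fell by 1.22 from Lgr5 (adjusted p = 0.027, up to 0.106 without a CD24 medium array). Incenp exceeded CD24 high by 2.07 in CD24 low and by 1.46 in CD24 medium, the latter call being lost (adjusted p up to 0.119) without either CD24 medium array or high 2. Aurkb was not well above background in CD24 high, at least 2.94-fold below Lgr5 (adjusted p = 0.0117), and its CD24 medium mean was 1.57 below Lgr5 (adjusted p = 0.0215, 0.0889 without medium 2).

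Condensin compacts chromosomes. By their brightest probes, its 5 subunits were all lower in CD24 high than in Lgr5. Of these, 4 were higher in CD24 low and 3 in CD24 medium than in CD24 high. Ncapd2 stood at 1.29 in Lgr5, 0.55 and 0.85 in CD24 low, 0.25 and 0.32 in CD24 medium, against -1.25 and -1.61 in CD24 high. Its gradient was shallow down to CD24 medium, 0.41 between CD24 low and CD24 medium, and then fell by 1.71 (SE 0.19, limma adjusted p = 0.00264). Ncapg stood at 0.76 in Lgr5, 0.13 and -0.06 in CD24 low, -0.57 and -0.77 in CD24 medium, then -1.87 and -2.15 in CD24 high. Its steps were 0.73 from Lgr5 to CD24 low, 0.71 to CD24 medium and 1.34 to CD24 high. Ncaph and the ATPase subunit Smc2 were not well above background in CD24 high, at least 2.52-fold and at least 2.94-fold below Lgr5. Smc4, the partner ATPase, was below whole small intestine on every array, from -0.62 in low 1 to -2.48 in high 2. Its Lgr5 level, -0.78, lay between the CD24 low arrays. A second Smc4 probe, above background on 5 arrays, gave 0.21 for CD24 high against Lgr5 where the brighter one gave -1.66. For CD24 medium over CD24 high it gave 0.12, beside 1.25. A second Ncapg probe, above background on 4 arrays, gave -0.56 for CD24 high against Lgr5, beside -2.77.

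Of 6 spindle motors and microtubule proteins, Nusap1, Tpx2 and Kif4 followed the order with no overlap between neighbouring groups, and Hmmr followed it with overlap. Nusap1, which bundles microtubules, stood at 1.07 in Lgr5, -0.14 and 0.07 in CD24 low, -0.74 and -0.90 in CD24 medium, with -1.75 and -1.59 in CD24 high. The widest step of Nusap1 was the first, 1.11 from Lgr5 to CD24 low (SE 0.21, limma adjusted p = 0.0143), and the total fall to CD24 high was 2.74. Tpx2, which activates Aurka on the spindle, stood at 0.65 in Lgr5, 0.01 and 0.11 in CD24 low, -0.70 and -0.60 in CD24 medium, against -1.46 and -1.29 in CD24 high. It was 1.43 higher in CD24 low than in CD24 high (adjusted p = 0.00187) and 1.30 lower in CD24 medium than in Lgr5 (adjusted p = 0.00715). The calls of both genes in CD24 medium against CD24 high, 0.85 and 0.73, were lost without any one array of these groups (adjusted p up to 0.106 and 0.132). Kif4, a chromokinesin, stood at 0.89 in Lgr5, 0.68 and 0.80 in CD24 low, 0.05 and -0.06 in CD24 medium, then -1.06 and -0.07 in CD24 high, where high 2 lay just below CD24 medium. Kif11, which pushes spindle poles apart, stood at 0.28 in Lgr5, -0.11 and -0.32 in CD24 low, -0.55 and -0.73 in CD24 medium, then -0.59 and -0.23 in CD24 high. As Kif11 was not well above background on either CD24 high array, its order between CD24 medium and CD24 high was not measured, and with Agilent's processed signals CD24 medium was 0.82 above CD24 high (adjusted p = 0.161). Kif2c, a microtubule depolymerase, lay at -0.01 and 0.08 in CD24 high beside -0.15 and 0.03 in CD24 medium, on arrays where it was well above background. Neither gene passed between CD24 levels.

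Anaphase begins when the anaphase-promoting complex, with its activator Cdc20 and the ubiquitin-conjugating enzyme Ube2c, releases separase, the product of Espl1. Cdc20 (probe at chromosome 4, 118105536 to 118105595, mm9) stood at 1.40 in Lgr5, 1.03 and 1.12 in CD24 low, 0.30 and 0.60 in CD24 medium, with -1.50 and -2.19 in CD24 high. CD24 low was close to Lgr5, and CD24 high lay far below. CD24 low exceeded CD24 high by 2.92, 7.57-fold (SE 0.25, limma adjusted p = 0.000784), and CD24 medium did so by 2.29, 4.91-fold (adjusted p = 0.00242). These were the largest differences of the 45 genes in both comparisons. Ube2c stood at 0.98 in Lgr5, 0.54 and 0.95 in CD24 low, -0.07 and 0.04 in CD24 medium, against -1.25 and -1.44 in CD24 high. Its CD24 low difference from CD24 high was 2.09 and its CD24 medium difference from Lgr5 -0.99 (adjusted p = 0.0326, up to 0.117 without a CD24 medium array). Espl1 stood at 0.87 and 1.47 in CD24 low and 1.00 in Lgr5, and its CD24 high arrays were not well above background, at least 2.58-fold below CD24 low (adjusted p = 0.0101, 0.0546 without high 1). Cdca3, which helps degrade the mitosis inhibitor Wee1, had 2 probes above background on all 7 arrays. The dimmer one gave -0.14 for CD24 low and -0.93 for CD24 medium against Lgr5, and 0.22 for CD24 medium over CD24 high. By the brighter probe, Cdca3 fell by 0.82 from Lgr5 to CD24 low and by 1.39 to CD24 medium, with 0.01 between CD24 medium and CD24 high. Its CD24 low call against Lgr5 (adjusted p = 0.027) was lost without either CD24 low or CD24 medium array (up to 0.0623).

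By their brightest probes, all 5 cytokinesis genes were lower in CD24 high and in CD24 medium than in Lgr5. Ect2 and Prc1 had their widest step between Lgr5 and CD24 low. Ect2, which activates RhoA at the cleavage furrow (probe at chromosome 3, 26996310 to 26996369, mm9), stood at 1.33 in Lgr5, -0.12 and -0.65 in CD24 low, -0.75 and -0.89 in CD24 medium, then -1.83 and -1.72 in CD24 high. The Lgr5 array stood alone above 0. Ect2 fell by 1.72 from Lgr5 to CD24 low, 3.28-fold (SE 0.26, limma adjusted p = 0.00757), the largest of the 45 genes, with 0.43 between CD24 low and CD24 medium. CD24 medium was 0.96 above CD24 high in Ect2 (adjusted p = 0.0241, up to 0.119 with an array of these groups left out). A second Ect2 probe, above background on 2 arrays, gave -0.38 for CD24 low and -0.13 for CD24 high against Lgr5. For CD24 medium over CD24 high it gave -0.38, so the size and direction of Ect2 differences depend on the probe. Prc1, which bundles the central spindle, stood at 0.50 in Lgr5, -0.38 and -0.64 in CD24 low, -0.95 and -1.22 in CD24 medium, with -0.77 and -0.61 in CD24 high. Its CD24 high arrays lay above those of CD24 medium and overlapped those of CD24 low. Prc1 fell by 1.01 from Lgr5 to CD24 low (adjusted p = 0.024, 0.0721 without low 2) and by 1.59 to CD24 medium (adjusted p = 0.00644). Kif20a, a kinesin of the central spindle, fell by 3.0 from Lgr5 to CD24 high, 8.02-fold, with CD24 low 2.22 and CD24 medium 1.56 above CD24 high. Kif23 and Racgap1, which form centralspindlin together, had CD24 medium above CD24 high by 0.14 and 0.00, without passing. Racgap1 was not well above background in CD24 high, and Kif23 was. A second Racgap1 probe, above background on 5 arrays, gave 0.02 for CD24 medium and -0.27 for CD24 high against Lgr5. The brighter probe gave -1.19 for both, so the size of these Racgap1 differences depends on the probe.

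Detection in CD24 high limits which differences from it could be measured. Of the 45 genes, 25 stood well above background on both CD24 high arrays, 11 on 1 and 9 on none. For the 9 dim genes, Cdc25c, Ttk, Aurkb, Ncaph, Smc2, Kif11, Hmmr, Espl1 and Racgap1, the level in CD24 high has only an upper limit. Their differences from it may be compressed, which was not tested. Between CD24 low and CD24 medium, where nearly all genes were bright, these 3 sets had medians of 0.63, 0.71 and 0.50. Kif2c, Kif23, Foxm1, Prc1, Bub1, Plk1 and Cdca3 were well above background on both CD24 high arrays and still differed from CD24 medium by less than 0.5 on the log2 scale.

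A further 110 genes of mitosis outside the list, chosen with earlier results known, were compared in the same way. Of the 106 measured, 23 were above and 3 below CD24 high in CD24 medium (median 0.18), against 7.52% and 13.3% of all genes. In CD24 low, 37 were above and 3 below it (0.50), against 6.84% and 11.2%. Between CD24 low and CD24 medium, 0 differed in either direction (0.32), against 0% and 0.114%. There 27 had an unadjusted limma p under 0.05 in either direction, beside 5.24% of all genes with CD24 low higher. Against Lgr5, 67 were lower and 2 higher in CD24 high (median -1.04), beside 14.6% and 21.2% of all genes. The counts were 48 and 1 for CD24 medium (-0.83), beside 8.5% and 10.3% of all genes. For CD24 low they were 26 and 2 (-0.54, beside -0.44 over the 45 genes), with 9.78% and 11.9% of all genes. Kif22, a chromokinesin, had the largest differences from CD24 high, 2.74 in CD24 low and 2.05 in CD24 medium. Bora, the cofactor through which Aurka activates Plk1, ran the opposite way, at 2.21 and 2.32 in CD24 high against 0.10 and 0.48 in CD24 low, 0.02 and 0.01 in CD24 medium and -0.03 in Lgr5. CD24 low was 1.97 below CD24 high in Bora (SE 0.18, adjusted p = 0.00102). Pimreg and Numa1 were also lower in CD24 low than in CD24 high, by -1.0 and -0.72, and Pimreg and Mastl lower in CD24 medium, by -1.49 and -0.63. Against Lgr5 in CD24 low, the lower genes were led by Cenpp (-1.87), Pbk (-1.76) and Haus4 (-1.72), and the higher ones were Cdca2 (2.62), with replicates at 1.66 and 3.30, and Ube2s (1.58), a ubiquitin-conjugating enzyme of the anaphase-promoting complex.

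S phase genes were set beside the mitotic ones. All 41 genes of DNA replication on a list chosen in the same way were measured. In CD24 low, 27 of them were lower than in Lgr5 and 0 were higher, against 9.78% and 11.9% of all genes. Their median was -1.10 beside -0.44 over the 45 mitotic genes. Between CD24 low and CD24 medium their median was 0.24 beside 0.63, and 0 passed in either direction (0% and 0.114% of all genes). An unadjusted limma p under 0.05 in either direction was reached by 3 of the 41, beside 5.24% of all genes with CD24 low higher. CD24 medium exceeded CD24 high with a median of 0.84 beside 0.72, with 23 higher and 1, Pcna, lower (7.52% and 13.3% of all genes). In CD24 high 35 were lower than in Lgr5 (14.6% of all genes). Uhrf1, which keeps DNA methylation through replication, stood at 2.71 in Lgr5, 0.78 and 0.76 in CD24 low, 0.89 and 0.02 in CD24 medium, against -1.08 and -1.42 in CD24 high. Gins1 and Chaf1b fell by 1.76 each from Lgr5 to CD24 low. The lists share no member, but the difference between their medians was not tested.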

How the data were processed

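RNA of sorted mouse intestinal cells was measured on 7 dual-colour Agilent arrays. Per the file headers, the deposited files hold spot intensity and local background per channel from Agilent Feature Extraction (version 10.5.1.1), well-above-background flags and a ratio in log10 units. The deposited series matrix also holds log10 ratios, which equal that column with its sign turned within 5e-06, so it gives sample over reference.

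From these, mean signals were corrected with normexp (offset 50) and normalised within arrays by loess (span 0.3). Probes well above background in the sample channel on at least 2 arrays were kept (24495), and each gene took its brightest probe. Group means were estimated from all arrays together in limma 3.58.1 (R 4.3.3, with the data.table package, version 1.17.8), with 3 residual and 3.55 prior degrees of freedom. P-values were adjusted over all genes by Benjamini and Hochberg, and 0.05 was the threshold. The fit was tested on simulated data. Figures used matplotlib 3.10.9 under Python 3.11.15.

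The members and lists were chosen with earlier results of these data known. Named in each comparison are up to 2 genes per role with the largest difference past the threshold and no overlap between groups, and always Mki67, Top2a, Ccnb1, Cdc20, Foxm1 and Mybl2. Of the other lists the 3 largest differences in each direction were eligible. Other genes with values were chosen after these were seen. Probe coordinates come from the array design (mm9), and no gene annotation of that build was used here. Alternatives are given in the closing section. The values of 1 immune marker are not reported here.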

Additional observations from a re-analysis of the deposited data

How the results depend on the processing

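The sign of each comparison's median over the genes held under every alternative run. Single genes did change direction, and the following are examples. Mad2l1 in CD24 medium against CD24 high was 2.16 with processed signals, 0.90 with the sample channel alone and 2.32 with the series matrix. Ttk in CD24 low against CD24 high was 1.48 with processed signals and 1.64 with the series matrix, from -0.08. Kif11 and Foxm1 changed direction in CD24 medium against CD24 high, as given above. With a second probe, Bub1 in CD24 low against Lgr5 was -0.90. Second probes also turned Smc4 in CD24 high against Lgr5 (0.21, from -1.66) and Racgap1 in CD24 low against Lgr5 (0.51, from -0.34). Ect2 in CD24 medium against CD24 high was turned as well (-0.38, from 0.96). Without background subtraction Ttk was called lower in CD24 medium than in CD24 high, against 0 such calls. CD24 low was called higher than Lgr5 in Bub1 under that setting, with the sample channel alone and over the 25 genes above background on all 7 arrays, and in Cdc25b over the mean of all probes. Differences from CD24 high varied between settings, which differ in background treatment, normalisation and probes kept. The median of CD24 medium over CD24 high was 0.89 without background subtraction, 0.92 with an offset of 16, 1.94 with Agilent's processed signals, 0.96 with the sample channel alone, 2.10 with the series matrix and 1.33 over the 25 genes above background on all 7 arrays, with 35 calls for processed signals and 35 for the series matrix. The median of CD24 low over CD24 high was, in that order, 1.59, 1.59, 2.66, 1.57, 2.82 and 2.03 (22 calls of 25 genes), and 1.15 over the mean of all probes. CD24 high against Lgr5 gave -1.99, -1.96, -2.94, -2.06, -3.22 and -2.32 (24 calls of 25), and -1.54 over all probes. On slide 2 alone, an alternative chosen after seeing the data, 11 genes were called in CD24 medium and 21 in CD24 low against CD24 high. CD24 medium against Lgr5 had 13 calls and a median of -1.27 with processed signals, 14 and -1.39 with the series matrix, and 16 calls on the 25 genes. CD24 low against Lgr5 had 2 calls with processed signals, 6 with the series matrix (median -0.65), 1 with slide as a term and 2 in a fit of these groups alone. The 4-group order held in 17 of the 25 genes. The cause of these changes was not tested, except that 25 genes cannot give more than 25 calls. CHR letters stood in 37.5% of the members' windows cut to the 200 bases before the start, against 75% of whole windows. For the windows of all genes the shares were 13.4% and 19.2%.

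Leaving out each array in turn gave 15 to 25 calls and medians of 0.62 to 0.85 for CD24 medium over CD24 high, 26 to 35 and 1.24 to 1.44 for CD24 low over CD24 high, 0 to 0 and 0.60 to 0.67 for CD24 low over CD24 medium, 35 to 40 and -1.89 to -1.56 for CD24 high against Lgr5, 14 to 33 and -1.15 to -1.07 for CD24 medium against Lgr5, and 6 to 11 and -0.56 to -0.44 for CD24 low against Lgr5. A lone remaining array was assumed to vary like the other groups. With the replicate number as a replicate block, 23, 36 and 0 genes were called in the comparisons of CD24 medium with high, low with high and low with medium. Deviations of same-numbered arrays correlated at 0.48 (low and medium), -0.01 (low and high) and 0.30 (medium and high), which does not show that the numbers pair the samples, and comparisons with Lgr5 were not fitted with this block.

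Limits: dim genes in CD24 high have only a lower bound on their difference, and 1 Lgr5 array carries 3 comparisons.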
